A study of Mus musculus with 21 samples.

Results

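Empagliflozin was compared with the control diet in the left ventricles of wild-type mice. All 5 wild-type hearts given empagliflozin (WT-EMPA) and all 5 wild-type hearts given the control diet (WT-CD) were taken, by genotype and diet alone, from the 21 hearts of the series. Every mouse was a male of the 129S6/SvEv strain and began its diet at 9 to 10 weeks of age. The wild-type mice were littermates of animals that carry R403Q, a cardiac myosin heavy chain mutation used as a model of hypertrophic cardiomyopathy. WT-CD mice ate a purified low-fat diet free of sucrose and WT-EMPA mice ate that diet with empagliflozin at 0.15 mg/g, about 15 mg per kg of body weight. The sources differ on how long the mice were treated. The labels give 16 weeks of feeding, whereas the paper places RNA sequencing at 12 weeks of age, after 2 weeks on the drug. Mice that began at 9 to 10 weeks of age cannot have been fed for 16 weeks by 12 weeks of age. On the paper's timing, these hearts therefore had the shorter treatment. The group sizes printed with the paper's RNA sequencing results match this series, but they leave out WT-EMPA. The same diets were given to 7 R403Q-CD and 4 R403Q-EMPA mice, which enter below only where the wild-type response is set against theirs.

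Empagliflozin inhibits SGLT2, the sodium-glucose cotransporter that reclaims filtered glucose in the kidney, so that glucose is lost in urine and the body draws more on fat and ketone bodies. In the heart, which burns mostly fatty acids, the nuclear receptor PPAR alpha switches on genes for fatty acid uptake, storage and oxidation. The sterol-sensing liver X receptors (LXR) switch on Srebf1, which encodes SREBP1c, a driver of fatty acid synthesis, and Abca1, a cholesterol exporter. The circadian clock runs in cardiomyocytes as a loop in which ARNTL (BMAL1) and CLOCK drive Per, Cry, Nr1d and Ciart genes through E-box sequences, and the products of those genes feed back on the loop.

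The WT-CD libraries held 29722396 to 40600094 gene counts (median 31625364) and the WT-EMPA libraries 30558067 to 36673833 (median 35975642). Cage was read from the number in each sample's title, which does not itself name a cage. On that reading, WT-CD mice came from 4 cages and WT-EMPA mice from 3, and since no cage held both diets, cage and diet cannot be told apart. On the first principal component of the 10 hearts (27.7% of variance), WT-CD 2 and WT-CD 5 stood apart from the others at -19.9 and -21, against -3.3 to 18.8. These hearts held the atrial light chain Myl7 at 24.1 and 108 CPM (counts scaled to a common library depth), against 1.66 to 6.48 in the other WT-CD hearts and 0.22 to 37.8 in the WT-EMPA hearts. Markers of the labelled tissue, ventricular cardiomyocytes, summed to 90313 to 98791 CPM in WT-CD and 90023 to 102284 CPM in WT-EMPA.

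Of 17309 genes tested, 5 were higher in WT-EMPA than in WT-CD hearts at an adjusted p under 0.05 and 0 were lower (0.0289% called; edgeR's quasi-likelihood test, Benjamini-Hochberg adjustment). The genes that rose included Srebf1, Btnl9, Ttc7 and Man1c1, each by 1.34-fold to 1.62-fold. At an unadjusted p under 0.05 there were 1907 genes (11%), of which 1028 were higher (5.94%) and 879 lower (5.08%). DESeq2 called 110 genes (0.636%), 81 higher (0.468%) and 29 lower (0.168%), among them these 5. Of the genes named below that edgeR did not call, it called Abca1, Acot1, Acot2, Acsl3, Angptl4, Ciart, Eif4ebp1, Lpcat3 and Myh7. It also called Plin2, Psmd14, Scd1, Scd4, Slc4a4, Top2a, Tsc22d3 and Wfdc1. With voom and cage as a random effect 1 gene was called, and with scaling by library size alone 0 were. Such calls depended on single mice: with 1 wild-type mouse left out, edgeR called 0 genes without WT-CD 1, 3 or 5 or WT-EMPA 3 or 5, 1 without WT-CD 2, 2 without WT-CD 4 or WT-EMPA 4, 3 without WT-EMPA 2 and 7 without WT-EMPA 1.

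Srebf1 (ENSMUSG00000020538) lies on the minus strand at chr11:60199089-60222581 of GRCm38. Its level in the WT-CD hearts was 29.4, 32.8, 29.8, 31.1 and 27.9 CPM in mice 1 to 5, and in the WT-EMPA hearts it was 40.4, 42.1, 51.3, 42.5 and 60.5 CPM. Every WT-EMPA heart lay above every WT-CD heart. The mean went from 30.2 ± 1.84 to 47.4 ± 8.47 CPM (SD, n = 5 each). This gave 0.65 ± 0.098 (SE) on the log2 scale, or 1.57-fold, with an adjusted p = 0.0236. The log2 fold change stayed between 0.55 and 0.70 when any 1 wild-type mouse was left out, but the adjusted p stayed under 0.05 in 5 of those 10 fits. Srebf1 shares 109 of its 5634 exon bases with Rai1 on the opposite strand, and the study's methods mention the same strand for the read pairs counted, without saying whether the strand of the gene is meant. Rai1 went from 29.5 to 34.98 CPM, or 0.25 on the log2 scale (adjusted p = 0.318).

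Btnl9 (ENSMUSG00000040283, chr11:49165585-49187159, minus strand) encodes a butyrophilin-like membrane protein of the immunoglobulin superfamily. It read 52.5, 43.99, 49.2, 59.0 and 53.5 CPM in WT-CD 1 to 5 and 87.0, 77.2, 73.7, 74.9 and 106 CPM in WT-EMPA 1 to 5. The groups did not overlap, and WT-EMPA 5 was highest, as it was for Srebf1. On the log2 scale the difference was 0.70 ± 0.11 (SE, adjusted p = 0.0348), from 51.6 ± 5.54 to 83.7 ± 13.3 CPM (SD, n = 5 each).

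Ttc7 (ENSMUSG00000036918, chr17:87282886-87381769, plus strand), which encodes a scaffold of the kinase complex that makes phosphatidylinositol 4-phosphate at the plasma membrane, read 18.2, 16.1, 17.2, 16.9 and 19.2 CPM in WT-CD and 21.3, 24.6, 23.6, 24.9 and 29.7 CPM in WT-EMPA hearts. Man1c1 (ENSMUSG00000037306, chr4:134561690-134704290, minus strand), a Golgi mannosidase that trims N-glycans, read 41.7, 38.5, 35.4, 36.4 and 37.7 CPM in WT-CD and 56.6, 47.5, 50.3, 47.9 and 51.9 CPM in WT-EMPA hearts. The groups did not overlap for either gene. Their log2 fold changes were 0.50 ± 0.086 for Ttc7 (SE, adjusted p = 0.0423) and 0.42 ± 0.076 for Man1c1 (SE, adjusted p = 0.0466). Without any 1 wild-type mouse, Man1c1 passed the threshold in 0 of 10 fits, Ttc7 in 1 and Btnl9 in 4, while none of them changed direction.

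**Figure D1:**
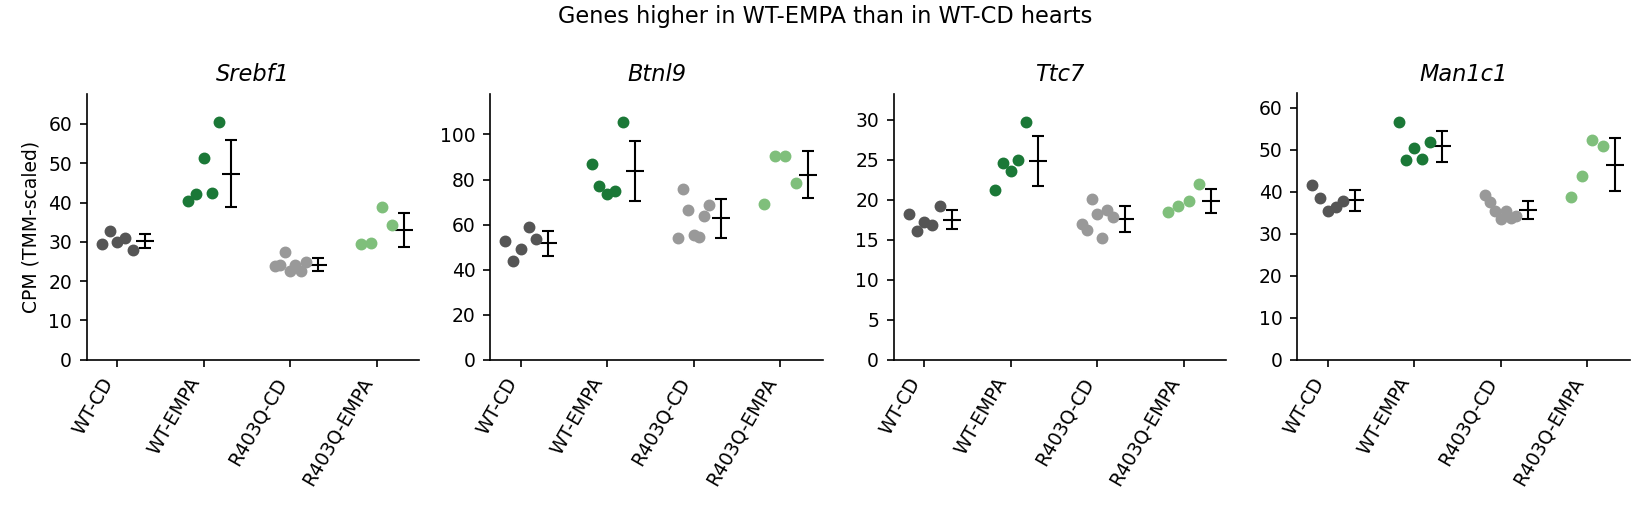
Level in CPM (linear axes from 0) of Srebf1, Btnl9, Ttc7 and Man1c1, which had an adjusted p under 0.05 in wild-type hearts; each point is a mouse, and the bars give the mean ± SD of WT-CD (n = 5), WT-EMPA (n = 5), R403Q-CD (n = 7) and R403Q-EMPA (n = 4). In each panel all 5 WT-EMPA points lie above all WT-CD points, for Srebf1 at 40.4 to 60.5 against 27.9 to 32.8 CPM.

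Because Srebf1 ranked first, the 250 bases before its RefSeq transcription starts were searched for a direct repeat, the kind of element that LXR and its partner RXR bind. The RefSeq table (GRCm38.p6) lists 3 starts for Srebf1, and one of them, inside the gene, has such a repeat in its window, chr11:60210472-60210721 on the minus strand. The window is shown 5′ to 3′ along the gene, with the repeat in capitals.

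Srebf1: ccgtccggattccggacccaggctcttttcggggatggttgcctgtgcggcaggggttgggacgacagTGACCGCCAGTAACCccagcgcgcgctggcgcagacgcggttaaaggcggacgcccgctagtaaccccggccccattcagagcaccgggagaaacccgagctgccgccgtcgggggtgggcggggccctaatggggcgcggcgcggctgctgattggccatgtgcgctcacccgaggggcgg

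The capitals lie 182 to 168 bases before the start and read, on the other strand, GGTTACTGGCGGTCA. The letters searched were those of this copy with its 4 spacer bases left free, GGTTACNNNNGGTCA, on both strands, a choice made after the Srebf1 values were seen. Across 32851 windows of 27025 genes, 12 windows (0.0365%) of 9 genes held it. The copies in the genes tested are shown for comparison, and 4 of these 6 genes had an unadjusted p under 0.05, all 4 higher in WT-EMPA (5.94% of all genes tested), Srebf1, which gave the letters, being one of them.
Srebf1: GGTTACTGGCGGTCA
Abca1: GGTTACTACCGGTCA
Fasn: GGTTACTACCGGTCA
Acsl3: GGTTACTATGGGTCA
Prrg4: GGTTACCTTCGGTCA
Tmem150c: GGTTACAACAGGTCA

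The Abca1 copy lies at chr4:53159948-53159962, 67 bases before its start, and the Fasn copy at chr11:120824758-120824772, 225 bases before its start. Beside Srebf1, the log2 fold changes of these genes were 0.57 for Abca1, 0.40 for Acsl3, which activates long-chain fatty acids, 0.997 for Prrg4, -0.29 for Fasn, the fatty acid synthase, and -0.19 for Tmem150c, none of them with an adjusted p under 0.05 in edgeR, whereas DESeq2 called Abca1 (adjusted p = 0.0104) and Acsl3 (adjusted p = 0.025). A match gives letters only, and no binding was measured. Among other called genes, Man1c1 held the half-site AGGTCA (4607 of all windows) and Btnl9 the half-site AGAACA (5284 of all windows), and no match was listed for Ttc7. Windows were available for 4 of the 5 called genes.

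The LXR and SREBP1c list held 21 genes, all tested. Srebf1 was its 1 called gene, 8 members were higher and 2 lower at an unadjusted p under 0.05 (5.94% and 5.08% of all genes tested), and the median log2 fold change was 0.10 beside -0.004 over all genes tested. This median was 0.028 with limma on variance-stabilized values and 0.030 without WT-EMPA 5, 0.036 without WT-CD 4, 0.041 without WT-CD 5, 0.043 without WT-EMPA 3 and 0.049 without WT-EMPA 2. DESeq2 called 5 of its members, 4 higher and 1 lower (0.468% and 0.168% of all genes tested). Abca1 read 57.7, 59.3, 54.2, 55.9 and 52.4 CPM in WT-CD 1 to 5 and 82.4, 84.8, 73.0, 66.3 and 109 CPM in WT-EMPA 1 to 5, without overlap (log2 fold change 0.57 ± 0.13 SE, adjusted p = 0.127). Lpcat3, which places polyunsaturated fatty acids into phospholipids, also showed no overlap, at 32.6 to 42.3 CPM in WT-CD and 47.1 to 55.7 CPM in WT-EMPA (log2 fold change 0.42, adjusted p = 0.127). Neither gene passed the adjusted threshold in edgeR.

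Members that make or desaturate fatty acids did not share one direction. The stearoyl-CoA desaturase Scd1 read 20.1, 132, 96.3, 34.7 and 109 CPM in WT-CD and 16.1, 20.7, 15.8, 39.5 and 21.98 CPM in WT-EMPA (log2 fold change -1.78, adjusted p = 0.127). Its paralogue Scd4 went the other way, from 1.27 to 3.09 CPM in WT-CD to 3.02 to 10.9 CPM in WT-EMPA (log2 fold change 1.73, adjusted p = 0.127; 1.07 with limma on variance-stabilized values). Both overlapped between groups, and since only uniquely aligned reads were counted, reads that fit both paralogues would be in neither count. WT-CD 2, 3 and 5 held high Scd1, and WT-CD 1 and 4 lay inside the WT-EMPA range.

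PPAR alpha targets and lipid storage genes lay higher as a group. Of 22 members tested out of 24 listed, 12 were higher and 0 lower at an unadjusted p under 0.05 (5.94% and 5.08% of all genes tested), 19 had a log2 fold change above 0 (49.1% of all genes tested), and the median was 0.305 (-0.004 over all genes tested). No member passed the adjusted threshold in edgeR, while DESeq2 called 5, all higher (0.468% of all genes tested). The groups did not overlap for 3 members, all higher (1.87% of all genes tested; 1.59% were apart and lower).

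Angptl4, a secreted inhibitor of lipoprotein lipase, had the widest difference of the list. It read 22.9, 7.58, 19.8, 19.9 and 8.15 CPM in WT-CD and 63.8, 33.2, 69.1, 28.8 and 69.1 CPM in WT-EMPA (log2 fold change 1.76 ± 0.38 SE, adjusted p = 0.127). No WT-CD heart reached the lowest WT-EMPA heart. The thioesterase Acot2, which cleaves acyl-CoA in mitochondria, read 103, 52.9, 88.7, 93.2 and 68.3 CPM in WT-CD and 161, 116, 135, 127 and 171 CPM in WT-EMPA (log2 fold change 0.81, adjusted p = 0.127), again without overlap.

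Pdk4, the kinase that turns off pyruvate dehydrogenase and so spares glucose, read 3039, 1018, 1527, 2263 and 918 CPM in WT-CD and 6185, 3081, 3831, 2175 and 4748 CPM in WT-EMPA. WT-EMPA 4 lay inside the control range (log2 fold change 1.19 ± 0.38 SE, adjusted p = 0.271). The cytosolic thioesterase Acot1 had a log2 fold change of 1.45 and the lipid droplet coat gene Plin2 one of 0.54 (adjusted p = 0.127 for both), each with overlapping groups. Acot1 and Acot2 are close paralogues, so the same reservation on uniquely aligned reads applies to them. For Angptl4, Acot1, Acot2 and Pdk4, WT-CD 2 and WT-CD 5, the hearts that stood apart, were the lowest of all 10. Without these 2 mice the list's median was 0.291, and the log2 fold change of Angptl4 was 1.34.

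**Figure D2:**
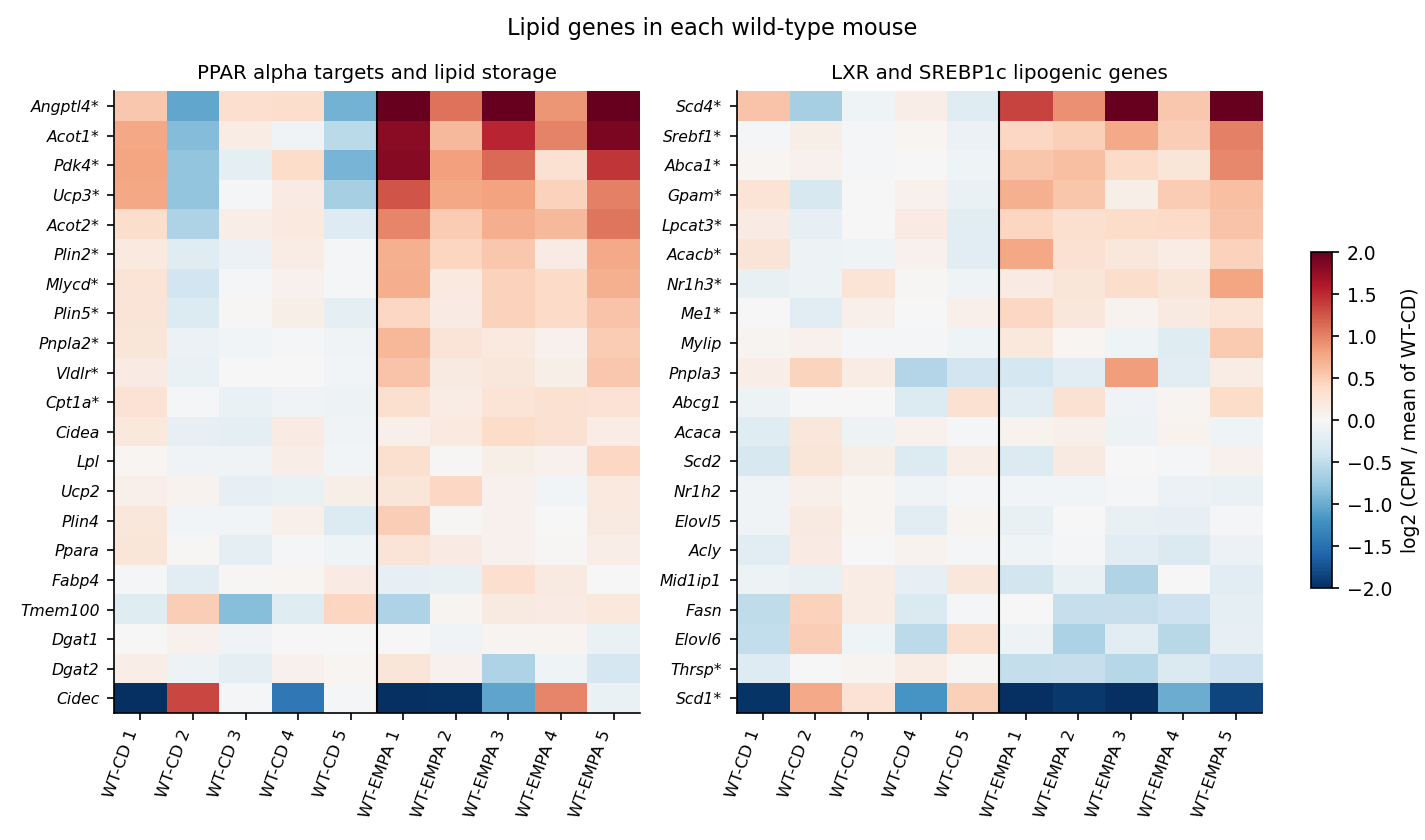
Each cell is log2 of a mouse's CPM over the WT-CD mean (colour scale, with values beyond its ends drawn in the end colours) for tested members of both lipid lists, ordered by log2 fold change; columns are the 10 wild-type mice, the line divides the diets, and asterisks mark an unadjusted p under 0.05. All 5 WT-EMPA hearts are above the control mean for Angptl4, Acot2, Srebf1 and Abca1, whereas Scd1 is lower.

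Of 26 mitochondrial enzymes of fatty acid oxidation, 5 were higher and 0 lower at an unadjusted p under 0.05 (5.94% and 5.08% of all genes tested), 23 had a log2 fold change above 0, and the median was 0.16 (0.093 without WT-CD 2 and 5). Cpt1a, which lets long-chain fatty acids into mitochondria, read 69.4 to 93.3 CPM in WT-CD and 84.6 to 95.1 CPM in WT-EMPA (log2 fold change 0.27, adjusted p = 0.288). Of 21 peroxisomal genes tested, 5 were higher and 0 lower (5.94% and 5.08% of all genes tested), with a median of 0.05 (0.029 without WT-EMPA 4). Acot4, a peroxisomal thioesterase, read 2.04, 1.35, 1.72, 1.56 and 1.20 CPM in WT-CD and 3.07, 2.23, 3.45, 2.36 and 2.50 CPM in WT-EMPA. Its groups did not overlap (log2 fold change 0.80 ± 0.23 SE, adjusted p = 0.222; 0.45 with limma on variance-stabilized values).

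None of the genes of glucose and ketone oxidation named here passed the adjusted threshold in edgeR. Oxct1, the enzyme that commits ketone bodies to oxidation, read 1585 to 1999 CPM in WT-CD and 1668 to 1844 CPM in WT-EMPA (log2 fold change -0.02), and Bdh1, the mitochondrial beta-hydroxybutyrate dehydrogenase, had a log2 fold change of 0.09. With single mice left out, these values ran from -0.063 (without WT-CD 1) to 0.021 (without WT-CD 4) for Oxct1 and from 0.002 (without WT-CD 1) to 0.317 (without WT-CD 4) for Bdh1. Of 14 genes of the pyruvate dehydrogenase complex, its kinases and pyruvate transport, 2 were higher, Pdk4 and Pdk1, and 1 lower (5.94% and 5.08% of all genes tested), Pdhb (497 to 575 against 374 to 481 CPM, log2 fold change -0.32, adjusted p = 0.306). None of 19 tricarboxylic acid cycle enzymes had an unadjusted p under 0.05. Of 37 nuclear-encoded complex I subunits, 35 had a log2 fold change below 0 (8808 of 17309 over all genes tested), with a median of -0.16, and 3 had an unadjusted p under 0.05, all lower, a share of 8.11% beside 11% of all genes tested.

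Core clock genes were described as 2 lists. All 12 members of the negative arm and D-box factors had a log2 fold change below 0, 8 were lower at an unadjusted p under 0.05 (5.08% of all genes tested), and the median was -0.37. The list called the positive arm holds 7 genes, among them Arntl, Clock, Npas2 and the Ror genes, but also the repressors Cry1 and Nfil3, the latter a D-box factor. In it 3 were higher at an unadjusted p under 0.05, Arntl, Clock and Nfil3 (5.94% of all genes tested), with a median of 0.23 that was 0.12 without WT-CD 5 and 0.077 without the 3 WT-EMPA mice of cage 68691, and Cry1 had a log2 fold change of -0.03. None passed the adjusted threshold in edgeR, and DESeq2 called 1 (0.168% of all genes tested were lower), Ciart, which encodes a repressor of CLOCK and ARNTL. Ciart read 11.3, 13.4, 15.1, 11.5 and 15.2 CPM in WT-CD and 3.19, 8.48, 1.96, 7.31 and 2.64 CPM in WT-EMPA (log2 fold change -1.49 ± 0.35 SE, edgeR adjusted p = 0.127). The groups did not overlap.

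Within WT-EMPA, the mice fell on different sides of the clock genes. Arntl read 4.17, 2.15, 1.48, 2.63 and 1.27 CPM in WT-CD and 11.9, 2.49, 13.5, 1.98 and 10.0 CPM in WT-EMPA (log2 fold change 1.78 ± 0.56 SE, adjusted p = 0.271; 1.06 with limma on variance-stabilized values). WT-EMPA 1, 3 and 5 lay above every control and WT-EMPA 2 and 4 inside the control range. Dbp, a transcription factor driven by the clock, read 67.2, 92.9, 128, 65.1 and 130.3 CPM in WT-CD and 36.2, 74.8, 23.3, 76.0 and 28.5 CPM in WT-EMPA (log2 fold change -1.02, adjusted p = 0.286). The same WT-EMPA 2 and 4 lay inside the control range for Dbp, and WT-EMPA 1, 3 and 5 below it. WT-EMPA 2 and 4 read 42.1 and 42.5 CPM for Srebf1, above all controls. They were also the lowest WT-EMPA hearts for Angptl4, Acot2 and Pdk4. Whether the lipid and clock differences go together was not tested. WT-EMPA 1, 2 and 3 came from cage 68691, WT-EMPA 4 from cage 68692 and WT-EMPA 5 from cage 68695. The time of day at which tissue was taken was not given in the sources used here.

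Other clock genes had smaller differences. The log2 fold changes were -0.36 for Per1 and -0.26 for Per2, which encode the repressors of the loop, and -0.39 for Nr1d1, which encodes REV-ERB alpha, a repressor of Arntl. Their adjusted p values were 0.287, 0.605 and 0.551. The groups overlapped for all 3. The value for Per2 was -0.137 without WT-EMPA 3 and -0.428 without WT-EMPA 2, and that for Nr1d1 was -0.237 without WT-CD 3.

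**Figure D3:**
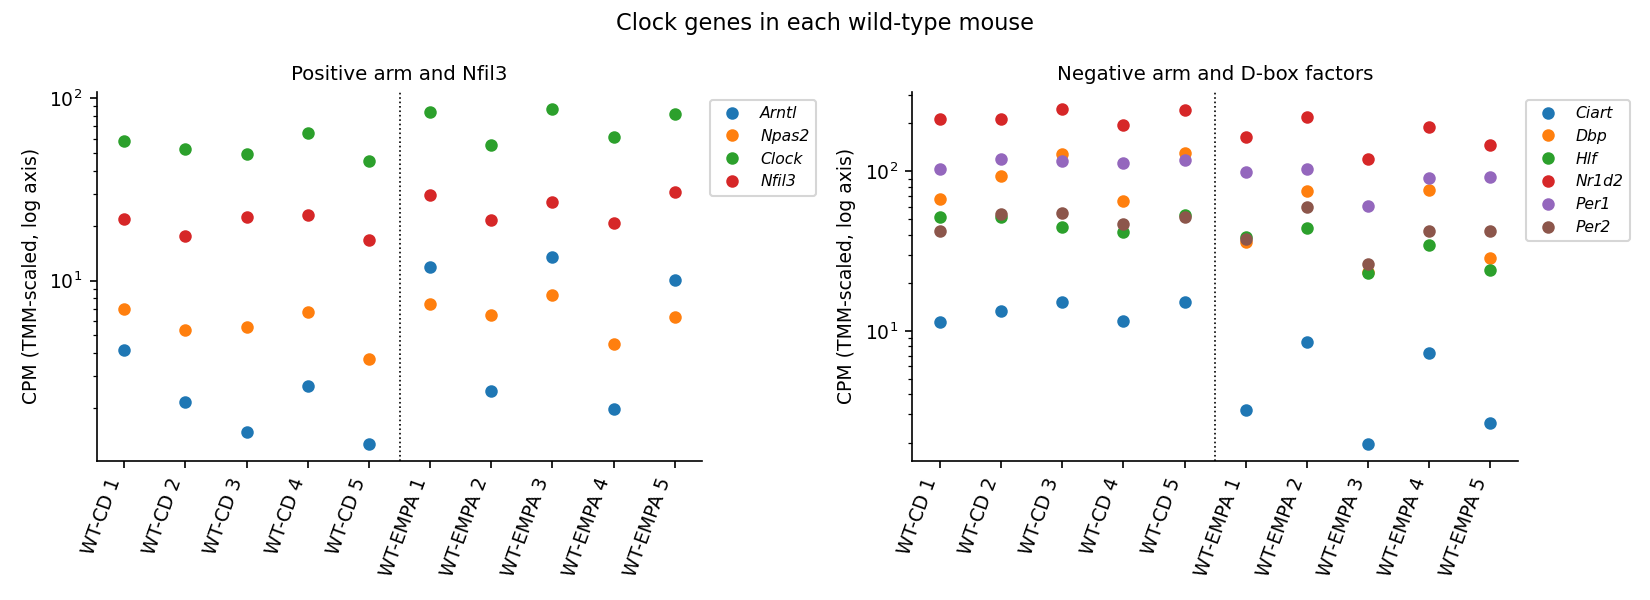
Level in CPM (log axis) of core clock genes in each of the 10 wild-type mice, with the positive arm and Nfil3 in one panel and the negative arm and D-box factors in the other; the dotted line divides the diets. Arntl is above the controls in WT-EMPA 1, 3 and 5 and inside their range in WT-EMPA 2 and 4, while Ciart is below all controls in all 5 WT-EMPA hearts.

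E-boxes (CACGTG, a palindrome that reads the same on both strands) occurred in 6.02% of all windows and in 5 of the 12 windows (41.7%) of the negative-arm genes with an entry. These windows belong to 4 of 10 genes: Bhlhe41, Ciart, Per1 and Tef. The windows of Ciart (chr3:95882229-95882478, minus strand) and Per1 (chr11:69098699-69098948, plus strand) are shown as examples, with E-boxes in capitals.
Ciart: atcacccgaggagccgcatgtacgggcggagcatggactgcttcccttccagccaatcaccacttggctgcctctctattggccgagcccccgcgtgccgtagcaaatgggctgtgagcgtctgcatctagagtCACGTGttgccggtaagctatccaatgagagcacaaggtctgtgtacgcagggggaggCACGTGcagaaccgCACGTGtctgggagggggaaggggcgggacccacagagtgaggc
Per1: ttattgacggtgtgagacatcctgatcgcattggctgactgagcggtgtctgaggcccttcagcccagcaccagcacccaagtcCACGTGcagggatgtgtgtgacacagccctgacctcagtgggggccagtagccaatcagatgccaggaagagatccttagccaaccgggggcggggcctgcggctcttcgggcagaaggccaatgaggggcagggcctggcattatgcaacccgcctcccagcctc
Ciart had 3 E-boxes, beginning 116, 58 and 44 bases before its start, and Per1 had 1, beginning 166 bases before the start shown. The choice of these windows was made after the values were seen, and the matches are a description of the letters. Nr1d2, which also has an entry, held no E-box, and its log2 fold change was -0.40 beside -0.36 for Per1. Whether the number of E-boxes goes with the size of the response was not tested.

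Of 20 glucocorticoid-responsive genes, 6 were lower and 3 higher at an unadjusted p under 0.05 (5.08% and 5.94% of all genes tested), with a median of -0.165. The 3 higher were Angptl4, Pdk4 and Cdkn1a, of which Angptl4 and Pdk4 also stand on the PPAR alpha list. Tsc22d3, which encodes the glucocorticoid-induced leucine zipper, read 226, 290.2, 234, 244 and 307 CPM in WT-CD and 171, 215, 151, 212 and 195 CPM in WT-EMPA, without overlap (log2 fold change -0.46, adjusted p = 0.173). Fkbp5, the co-chaperone that limits the glucocorticoid receptor, read 149.6 to 173 CPM in WT-CD and 132 to 192 CPM in WT-EMPA (log2 fold change -0.03).

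Proteasome subunits were slightly lower as a group: 29 of 31 had a log2 fold change below 0 (8808 of 17309 over all genes tested), 14 had an unadjusted p under 0.05, all lower (5.08% of all genes tested), and the median was -0.14. Psmd14, the deubiquitinase of the proteasome lid, went from 57.4 to 65.5 CPM in WT-CD to 44.9 to 53.6 CPM in WT-EMPA (log2 fold change -0.32, adjusted p = 0.127). Of 28 cell cycle genes, 9 were lower and 1 higher (Cdkn1a, an inhibitor of cyclin-dependent kinases), beside 5.08% and 5.94% of all genes tested. Their median was -0.38, and -0.178 with limma on variance-stabilized values. Top2a, the topoisomerase of dividing cells, read 3.80, 1.89, 2.65, 2.23 and 7.01 CPM in WT-CD and 0.64, 0.96, 1.63, 1.78 and 0.59 CPM in WT-EMPA (log2 fold change -1.66, adjusted p = 0.188; -0.879 with limma on variance-stabilized values). Its groups did not overlap, but its levels were low. In bulk tissue, fewer cells of a type and less RNA per cell cannot be told apart.

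Among 28 genes of the mTOR complexes, their inhibitors and autophagy start, 2 were higher and 2 lower (5.94% and 5.08% of all genes tested), a share of 14.3% beside 11% of all genes. The median was 0.095, and 0.028 without WT-EMPA 1. Eif4ebp1 and Eif4ebp2, which encode paralogous translation repressors that mTOR complex 1 phosphorylates, had opposite log2 fold changes of -0.29 (adjusted p = 0.127) and 0.27 (adjusted p = 0.305), each with groups that did not overlap.

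**Figure D4:**
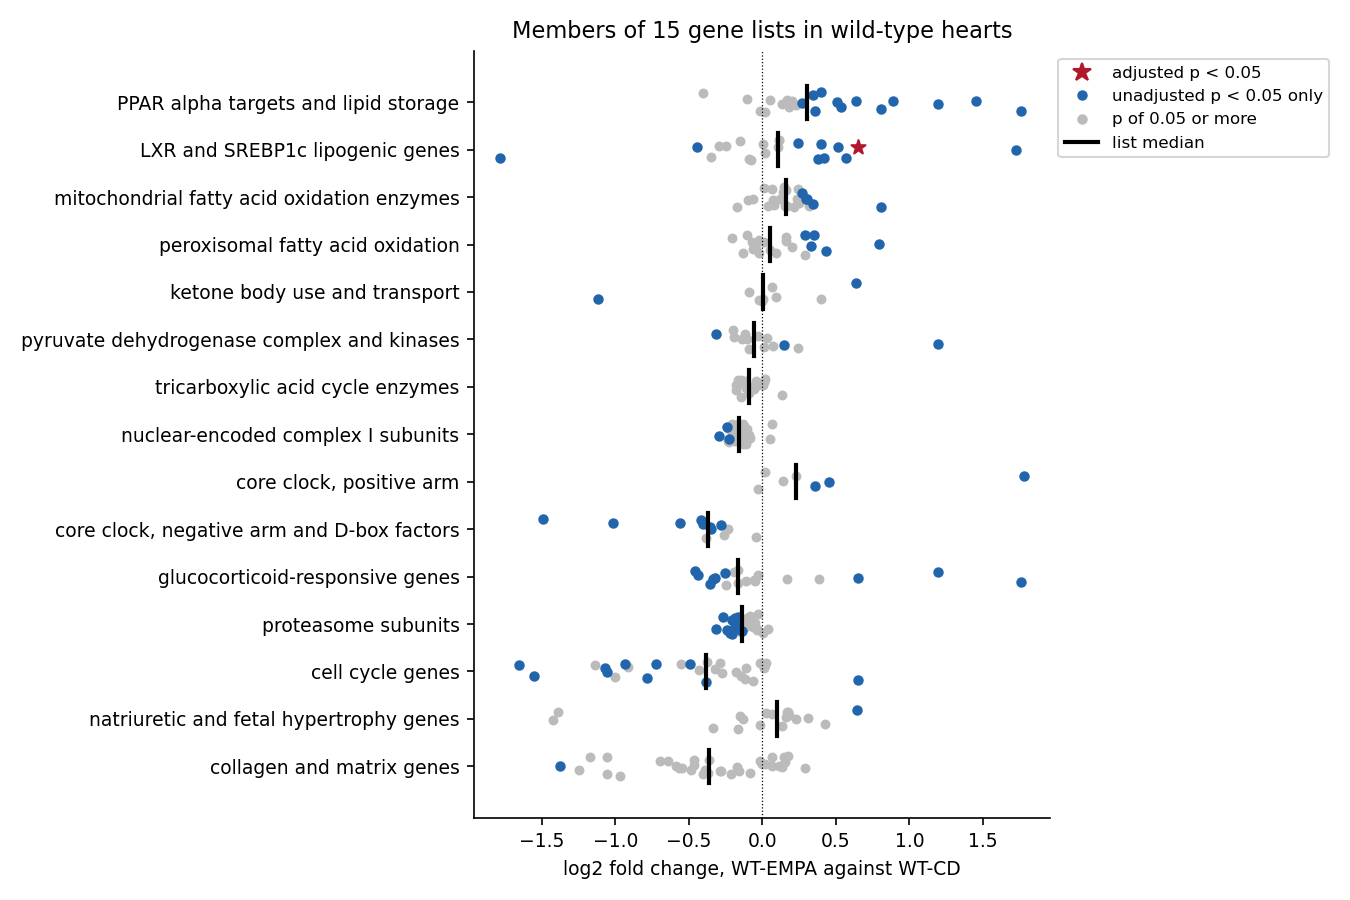
Log2 fold change of WT-EMPA against WT-CD for each tested member of 15 gene lists; each point is a gene, the vertical bar is the list's median, the star is the gene with an adjusted p under 0.05 (Srebf1) and blue points have only an unadjusted p under 0.05. The medians run from -0.38 for cell cycle genes (-0.178 with limma on variance-stabilized values) to 0.305 for PPAR alpha targets.

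The target of the drug was not detectable in these hearts. Slc5a2, which encodes SGLT2, had 0 counts or 1 count in each of the 10 wild-type hearts, under a floor of 3 counts per library (0.0739 to 0.101 CPM). It did not pass the filter on low counts (filterByExpr) and so was not tested. Slc5a1, which encodes the related SGLT1, read 1.29 to 2.70 CPM in WT-CD and 1.47 to 3.04 CPM in WT-EMPA (log2 fold change 0.24 ± 0.29 SE, adjusted p = 0.805). This value was 0.07 without WT-EMPA 1, 0.144 without WT-CD 1 and 0.43 without WT-CD 4. Of 18 genes of SGLT transporters and sodium and proton handling tested, 2 were higher, Slc4a4 and Scn4b, and this share of 11.1% is near the 11% of all genes with an unadjusted p under 0.05. Slc4a4, a sodium bicarbonate cotransporter, read 42.7, 41.7, 38.8, 40.8 and 36.2 CPM in WT-CD and 46.0, 55.8, 50.3, 59.6 and 51.6 CPM in WT-EMPA, without overlap (log2 fold change 0.40, adjusted p = 0.127).

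Of 18 natriuretic and fetal hypertrophy genes, 1 had an unadjusted p under 0.05 (11% of all genes tested), Myh7, the slow myosin heavy chain. Myh7 read 2885, 2952, 2627, 2896 and 2894 CPM in WT-CD and 4008, 3019.5, 6086, 3488 and 5709 CPM in WT-EMPA (log2 fold change 0.65 ± 0.15 SE, adjusted p = 0.127 in edgeR and 0.0111 in DESeq2). The controls were close together and all WT-EMPA hearts were above them, WT-EMPA 1, 3 and 5 the most. Myh6, the main myosin of the adult mouse ventricle, had a log2 fold change of 0.06. The log2 fold changes of the natriuretic peptide genes Nppa and Nppb were 0.42 (238 to 595 against 359.7 to 746 CPM) and 0.03, neither near the threshold (adjusted p = 0.831 and 0.989). The Nppa value was 0.27 without WT-CD 3. Of the 8616 exon bases of Myh7, 523 are shared with Gm31251, 484 with the antisense RNA Mhrt and 142 with Gm29015, all on the opposite strand.

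Matrix genes varied with the hearts that stood apart. The median log2 fold change of 35 collagen and matrix genes was -0.365, and without WT-CD 2 and 5 it was 0.072. Col1a1, a chain of type I collagen, read 53.8, 116, 35.9, 36.5 and 93.5 CPM in WT-CD and 33.9, 52.8, 34.4, 67.1 and 34.7 CPM in WT-EMPA (log2 fold change -0.59, adjusted p = 0.759; -0.303 without WT-CD 2 and 0.085 without WT-CD 2 and 5). The value for Col3a1, of type III collagen, was -0.70 (adjusted p = 0.742), and -0.412 without WT-CD 5 and -0.026 without WT-CD 2 and 5. The WT-CD hearts with the highest levels were WT-CD 2 and 5.

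Erythroid and granulocyte markers were mostly higher in WT-EMPA hearts at an unadjusted p under 0.05 (5.94% of all genes tested), though none passed the adjusted threshold in edgeR. Of 7 erythroid markers 6 were higher and 0 lower, with a median of 0.64, and their sum was 709 to 1287 CPM in WT-CD and 1245 to 2018 CPM in WT-EMPA. Of 6 granulocyte markers tested, 4 were higher, with a median of 2.09 (0.923 with limma on variance-stabilized values), and the sum over the list was 6.65, 2.62, 3.54, 13.4 and 7.23 CPM in WT-CD and 10.6, 11.7, 30.2, 14.5 and 52.5 CPM in WT-EMPA. Both sums overlapped between groups. Of 7 lymphocyte markers tested, 0 had an unadjusted p under 0.05 and 3 had a log2 fold change below 0. WT-EMPA 5, with the highest granulocyte sum, also had the highest Srebf1, Btnl9 and Ttc7. The part of blood cells in the differences above was not tested. Endothelial markers had 2 of 9 higher, macrophage markers had 0 of 9 past an unadjusted p under 0.05, and fibroblast markers had 0 of 9.

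The diet was also set against itself across genotypes. In R403Q hearts, edgeR called 2 genes (0.0116%) and 2322 had an unadjusted p under 0.05 (13.4%), 7.06% higher and 6.36% lower. The difference between the wild-type and R403Q responses, tested as an interaction, gave 0 genes at an adjusted p under 0.05 in edgeR and 0 in DESeq2, with 567 (3.28%; 1.82% with the higher value in wild type and 1.46% with the lower) and 582 at an unadjusted p under 0.05. The comparisons share no mouse, but all wild-type mice other than WT-EMPA 1, 2 and 3 came from cages that also held R403Q mice, and for these mice likeness between genotypes and likeness within cages were not separated in the values given next. Across the 17309 genes, 64.8% had log2 fold changes of the same sign (Pearson's r = 0.363, Spearman's rho = 0.378, across genes, which are not independent replicates). Of the 1907 genes with an unadjusted p under 0.05 in wild type, 86.5% had the same sign in R403Q.

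For Srebf1 the log2 fold change was 0.45 in R403Q (24.2 to 33.0 CPM, adjusted p = 0.103 in edgeR), and the wild-type value exceeded it by 0.20 ± 0.14 (SE, adjusted p = 0.999 in edgeR). Man1c1 had nearly equal log2 fold changes of 0.42 and 0.39, a difference of 0.04 ± 0.11 (SE). For Btnl9 and Ttc7 the values in R403Q were 0.39 and 0.17, which left differences of 0.31 and 0.33 from the wild-type values, neither of which passed adjustment (edgeR adjusted p = 0.999 for each). The PPAR alpha list had a median of 0.265 in R403Q and the negative clock arm one of -0.379, close to the wild-type medians. The wild-type and R403Q values were -1.49 and -1.38 for Ciart, 1.76 and 1.37 for Angptl4, 1.78 and 1.61 for Arntl, -0.39 and -0.85 for Nr1d1, and -0.26 and -0.53 for Per2. None of these genes had a genotype difference that passed adjustment (edgeR adjusted p = 0.999 for each).

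The natriuretic and fetal list had a median of 0.10 in wild type (0.032 without WT-CD 3) and -0.668 in R403Q, where 8 of its members were lower and 1 higher at an unadjusted p under 0.05 (6.36% and 7.06% of all genes tested in R403Q). Nppa had a log2 fold change of 0.42 in wild type and -1.88 in R403Q (2873 to 782 CPM), a difference of 2.30 ± 0.83 (SE) that did not pass adjustment (edgeR adjusted p = 0.999). Nppb had values of 0.03 and -1.17, a difference of 1.19 that did not pass either. Interferon-stimulated genes had a median of -0.046 in wild type (-0.12 to 0.038 without single mice), with 0 of 25 past an unadjusted p under 0.05, and -0.533 in R403Q, with 13 lower (6.36% of all genes tested). The complex I median was -0.16 in wild type and 0.030 in R403Q. These differences between list medians were not tested. Of 7 atrial markers, of which Nppa, Myl4 and Myl7 are also in the natriuretic and fetal list, 4 were lower in R403Q-EMPA hearts at an unadjusted p under 0.05 (6.36% of all genes tested), with a median of -1.878 and log2 fold changes of -3.40 for Myl7, -3.02 for Myl4 and -4.26 for Sln. In wild type that median was -1.391, and 0.533 without WT-CD 2 and 5. The part of atrial tissue in the natriuretic values was not tested.

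**Figure D5:**
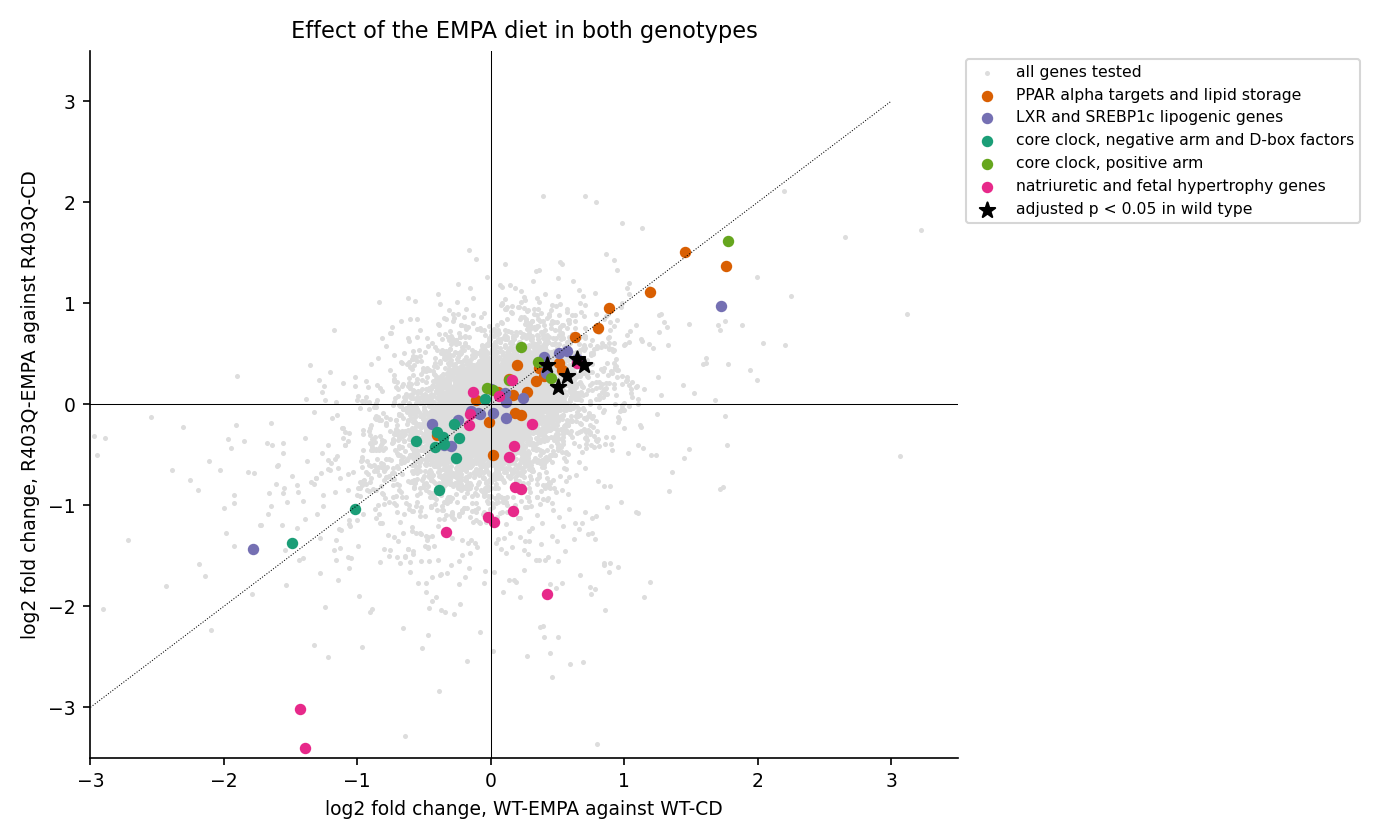
Log2 fold change of the EMPA diet in wild-type hearts (horizontal) against that in R403Q hearts (vertical) for the genes tested, with 5 lists coloured and the genes called in wild type as stars; the dotted line marks equal values, and 7 genes lie beyond the axes. Angptl4 is at 1.76 and 1.37, Ciart at -1.49 and -1.38, Nr1d1 at -0.39 and -0.85, and Nppa at 0.42 and -1.88.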

How the data were processed

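Left ventricular poly(A) RNA of 21 male mice was sequenced (NEBNext Ultra II, NextSeq 2000). The authors aligned reads to mm10 with STAR 2.6.0c and counted uniquely aligned proper pairs per nonmitochondrial gene with featureCounts (Subread 1.6.2, Ensembl 100), and deposited these gene counts, with FastQC 0.11.7 as quality check. The authors also deposited log2 variance-stabilised values made with DESeq2 1.32.0, used here only in one alternative.

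Counts of all 4 groups were fitted with edgeR 4.0.16 (R 4.3.3) by quasi-likelihood, with TMM scaling and filterByExpr at a minimum count of 10, and p values were adjusted by Benjamini-Hochberg over 17309 genes. CPM are TMM-scaled. DESeq2 1.42.0, limma 3.58.1 on the log2 values, voom with cage as random effect, cage as a fixed block (genotype difference alone), other filters and scalings, and fits without each mouse or cage were alternatives. Scripts were tested on simulated data. GENCODE M21 named 55190 of 55450 genes. Coordinates are GRCm38 (mm10), counted from 1, and promoters are from RefSeq (GRCm38.p6). Each sample was 1 mouse.

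The samples compared and the gene lists were chosen with earlier results of these data known. The genes named by rule were the called genes (adjusted p under 0.05) together with a set list (Slc5a1, Slc5a2, Myh6, Nppa, Nppb, Bdh1, Oxct1, Cpt1a, Pdk4, Angptl4, Fkbp5, Arntl, Per1, Per2, Dbp, Nr1d1, Col1a1 and Col3a1). Some genes that the rule names are not reported here. Every other gene named was chosen after its values were seen.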

Additional observations from a re-analysis of the deposited data

Results flagged for a closer look

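Of 70 sets of 5 values examined, 8 had 1 sample farther from the rest than Dixon's criterion allows, and chance alone gives about 1 in 20. The sets are not independent: all come from the same wild-type mice, and Myh6 is one of the ventricular markers. WT-EMPA 1 had Myh6 at 54667 CPM, against 40424 to 44153 CPM in the other WT-EMPA hearts, and its ventricular cardiomyocyte markers summed to 102284 CPM, against 90023 to 92433. In WT-CD 1, Cpt1a was at 93.3 CPM, against 69.4 to 74.7 in the other WT-CD hearts, and inside the WT-EMPA range of 84.6 to 95.1. Nr1d1 was at 49.2 CPM in WT-EMPA 2, against 28.4 to 33.7 in the other WT-EMPA hearts. WT-CD 5 had an endothelial marker sum of 1723 CPM, against 1558 to 1589, and a mesothelial marker sum of 26.1 CPM, against 7.33 to 11.6. The adipocyte marker sum of WT-CD 2 was 44.2 CPM, against 24.5 to 28.7. The total count of WT-EMPA 3 was 30558067, against 35445239 to 36673833 in the other WT-EMPA hearts.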

How the results depend on the processing

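The count of 5 genes was 110 with DESeq2, 0 with scaling by library size alone, 1 with voom and cage as a random effect, 0 without cage 68657, 68660, 68664 or 68666, 3 without cage 68692 and 1 without cage 68695. It was 0 without WT-CD 2 and 5, an alternative chosen after seeing the data, and 0 to 12 when 1 of the 21 mice was left out (12 without R403Q-CD 2). The 10 wild-type mice alone gave 5 genes, 3 higher and 2 lower, of which 3 were among the 5. The R403Q count of 2 was 151 with DESeq2, 5 with library size alone, and 0 to 12 with 1 mouse left out. Among genes with no call, the log2 fold change took the other sign for Myh6 without WT-EMPA 1 (-0.013 to 0.103 without single mice), for Nppb with limma (-0.028), without cage 68691 (-0.055), 68657 (-0.128) or 68695 (-0.012) and without single mice (-0.315 to 0.208), for Oxct1 without cage 68664 or WT-CD 4 (0.021; -0.063 to 0.021 without single mice), for Fkbp5 without cage 68692 (0.027) and without WT-EMPA 3 or 4 (0.031 and 0.03; -0.103 to 0.031 without single mice), and, without WT-CD 2 and 5, for Col1a1 (0.085), Dkk3 (0.458) and Comp (0.286). The cause was not tested. The list medians of PPAR alpha targets (0.265 to 0.368), LXR targets (0.028 to 0.149) and the negative clock arm (-0.474 to -0.298) kept their sign in all 14 other settings and in the 21 fits without a single mouse. No paired analysis was possible because no cage held both diets and the labels give no shared replicate numbers. The difference between genotypes could be fitted within cages, with cage as a fixed block (chosen after seeing the data), and gave 0 genes at an adjusted p under 0.05 in edgeR and 826 at an unadjusted p under 0.05.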

Other observations

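The gene lists below had no member past the adjusted threshold in edgeR, and their counts stand beside 5.94% of all genes tested higher and 5.08% lower at an unadjusted p under 0.05. In the heat shock and chaperone list, 3 of 29 genes were higher and 2 lower at an unadjusted p under 0.05. Hsph1, a nucleotide exchange factor of HSP70, read 43.3, 42.8, 44.4, 46.6 and 46.0 CPM in WT-CD and 51.7, 60.6, 58.6, 52.0 and 81.5 CPM in WT-EMPA, without overlap (log2 fold change 0.45, adjusted p = 0.265), and Rbm3, a cold-inducible RNA-binding protein, read 21.4 to 23.9 CPM in WT-CD and 12.2 to 19.6 CPM in WT-EMPA (log2 fold change -0.41, adjusted p = 0.265). In the insulin signalling list 4 of 24 were higher and 3 lower, among the higher Tbc1d4, the Rab regulator of GLUT4 movement (55.9 to 83.6 against 85.5 to 124 CPM, log2 fold change 0.51, adjusted p = 0.286).

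Of 17 mitochondrial biogenesis genes, 14 had a log2 fold change above 0 and 2 an unadjusted p under 0.05, both higher: Twnk, the mitochondrial DNA helicase (log2 fold change 0.26), and Polg, the mitochondrial DNA polymerase (0.19). Of 24 SREBP2 and cholesterol synthesis genes, 21 had a log2 fold change below 0 and 2 an unadjusted p under 0.05, both lower, Mvd (-0.50) and Acat2 (-0.37). Branched-chain amino acid breakdown (26 genes) and calcium handling (18 genes) had 0 members with an unadjusted p under 0.05. Wfdc1, a secreted whey acidic protein family member, had the smallest p among genes that were lower, at 13.9, 16.3, 17.999, 15.2 and 15.3 CPM in WT-CD and 11.4, 11.1, 8.67, 10.5 and 6.40 CPM in WT-EMPA (log2 fold change -0.71, adjusted p = 0.109).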
